A study of Mus musculus with 36 samples.

Results

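The adhesion molecules and integrin subunits described here were 9 genes, namely Cdh17, Esam, Jaml, Itgax, Itgam, Itga4, Itgb2, Itgb7 and Selplg, out of 9904 genes measured in the study. They were chosen by symbol and not by a threshold on the measurements, but with earlier results of these data known. All 9 were measured both in eosinophils across tissues and in eosinophils of the small intestine sorted by the neuromedin U receptor Nmur1. Leukocytes leave the blood by a sequence of adhesion steps. Selectins on the vessel wall bind the glycoprotein encoded by Selplg and slow the cell, and integrins, which are pairs of an alpha and a beta subunit, then arrest it on immunoglobulin-type ligands and guide it through tissue. In eosinophils Itga4 pairs with Itgb1, a receptor for Vcam1, or with Itgb7, a receptor for the gut vascular addressin Madcam1, while Itgam and Itgax both pair with Itgb2. Cdh17, Esam and Jaml encode surface proteins of another kind, best known from cell junctions of epithelium and endothelium and, for Jaml, from leukocytes that bind the epithelial receptor encoded by Cxadr.

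The study addresses how the neuropeptide neuromedin U acts on eosinophils, granulocytes made in the marrow, in the small intestine. Cells sorted by flow cytometry came from C57BL/6 mice aged 8 to 12 weeks, male and female pooled, kept at steady state. Wildtype mice gave total eosinophils of 7 sites: small intestine (4 libraries), colon (3), skin (3), lung (3), spleen (4), blood (4) and bone marrow (3). From NMUR1-TdT reporter mice, in which the fluorescent protein TdT marks expression of the receptor Nmur1, came 5 libraries of Nmur1+ and 6 of Nmur1- small intestine eosinophils. All were made by the full-length Smart-seq2 protocol, and 1 single-cell sample was not analysed here. Values were TPM, a transcript abundance scaled by transcript length and by library total, so they keep no sequencing depth and the depth behind each value is unknown. Whether replicates were separate animals is not stated in the labels, so p-values speak only of spread between libraries, possibly technical. In sorted bulk samples, fewer cells of a type and less RNA per cell cannot be told apart.

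Eosinophil identity genes were read first, beside genes of other cell types. All 16 listed eosinophil identity genes, among them Siglecf, Ccr3 and Il5ra, were measured in the tissue libraries, and their summed TPM was lowest in lung (2749 to 3172) and highest in bone marrow (117544 to 163695), where granule protein genes were abundant. Epx, the eosinophil peroxidase, was listed at 0 in all 3 colon libraries, and 12 of the 16 were measured in the sorted libraries. The 8 measured of 9 erythroid genes summed to 39162 to 118995 TPM in blood and 36.2 to 39613 TPM in spleen. They summed to 7791 to 18498 TPM in bone marrow, 2264 to 29163 in lung and 14.4 to 17734 in small intestine. In skin they reached 1394 TPM and in colon 349 TPM. The B and plasma cell genes Cd79b and Jchain summed to 13.8 to 918 TPM (median 26.5) in small intestine. The part of these cells in the results was not tested. Nmur1 itself averaged 40.8 ± 13.2 TPM (SD, n = 5) in Nmur1+ and 7.32 ± 5.03 TPM (SD, n = 6) in Nmur1- libraries. No pair of libraries shared more than 0.193% of their values, so none was a copy of another. Changes below are differences of mean log2(TPM + 1), a scale that understates the change of low genes, after subtracting the median change over all genes tested. A gene was called where limma gave a Benjamini-Hochberg adjusted p under 0.05, and the p tests the difference before that median is subtracted.

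Cdh17, Esam and Jaml, the junction-type molecules, were high in small intestine eosinophils and near 0 in those of the other tissues. Cdh17 encodes liver-intestine cadherin, an adhesion protein of gut epithelium. Its 4 small intestine libraries held 79.06, 48.89, 42.89 and 62.67 TPM. Among the other 20 libraries Cdh17 was listed at 0 in 15, and the highest was 1.63 TPM in a blood library. No small intestine library overlapped any other, and the 3 colon libraries, at 0.48, 0.15 and 0 TPM, lay with the rest. Against the mean of the 6 other tissues the change of Cdh17 was 5.62 on the log2 scale (SE 0.24, adjusted p = 5.65e-16), the 12th highest of 9806 genes tested.

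Jaml encodes a junctional adhesion molecule-like protein of leukocytes. It stood at 36.17, 35.38, 24.36 and 25.43 TPM in the small intestine libraries. It was listed at 0 in 14 of the 20 others, and the highest of those were 2.50 TPM in a skin and 2.48 TPM in a colon library. The groups were again apart, with a change of 4.52 (SE 0.32, adjusted p = 5.88e-12). Esam, an adhesion molecule of endothelial tight junctions and platelets, was lower, at 15.3, 6.73, 8.09 and 8.99 TPM in small intestine. Its highest values elsewhere were 3.07 TPM in a spleen, 2.14 TPM in a colon and 2.04 TPM in a blood library, and it was listed at 0 in all 3 lung and all 3 skin libraries. The change of Esam was 2.97 (SE 0.34, adjusted p = 3.43e-08). Each of the 3 genes differed between small intestine and each of the 6 other tissues, and none of them was called in any of the 15 comparisons among those 6 tissues, where the smallest adjusted p was 0.445 for Cdh17, 0.261 for Esam and 0.306 for Jaml. Cdh17 passed the filter on low values, a TPM of at least 1 in 3 libraries, only through small intestine, since 1 library elsewhere reached 1 TPM. Esam and Jaml each reached it in 3 libraries elsewhere.

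**Figure D1:**
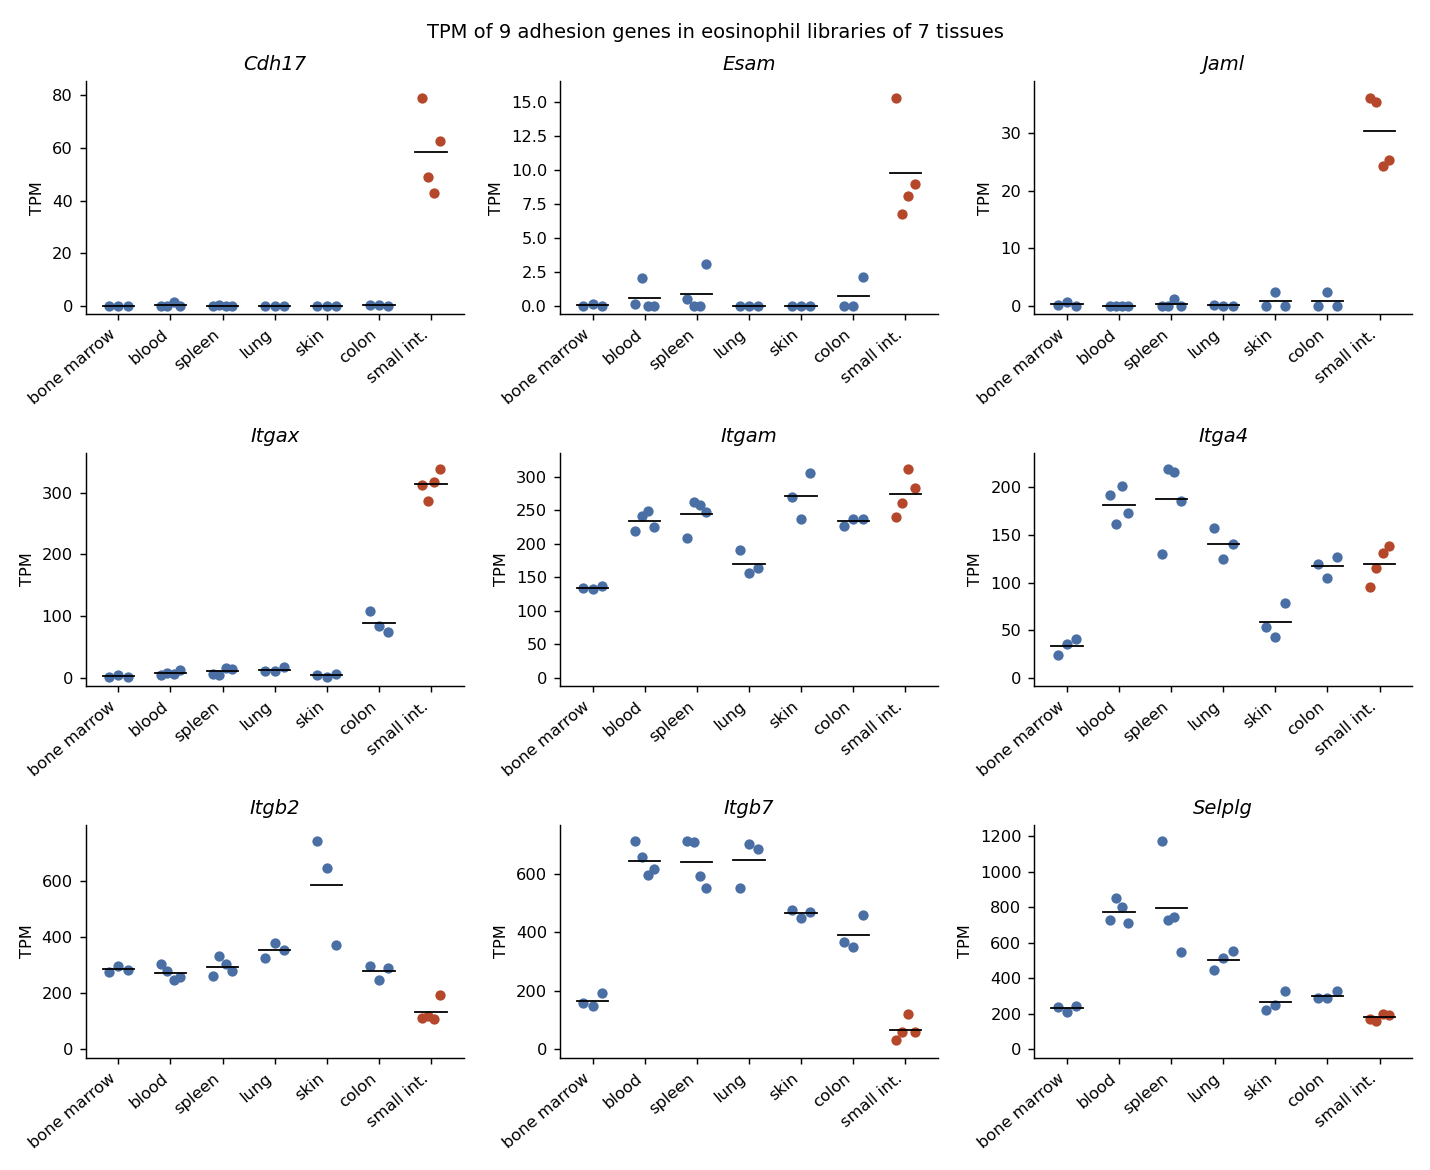
TPM (linear vertical axes) of the 9 genes in the 24 libraries of total eosinophils, by tissue; each point is a library, small intestine in red, and each bar is the group mean. Cdh17, Esam, Jaml and Itgax are higher in all 4 small intestine libraries than in any other library, and Itgb2, Itgb7 and Selplg are lower.

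Markers of the cells in which these genes are best known were read in the same libraries. Of 25 gut epithelium genes listed, 5 were measured, with a summed TPM of 101 to 230 in small intestine, 59.0 to 136 in colon, 7.06 to 10.4 in skin and 15.9 to 93.9 in the remaining tissues. Most of the small intestine sum was Olfm4 (67.9 to 176 TPM), a gene that neutrophils also express. Epcam, the defining surface marker of epithelium, ranged from 0 to 3.92 TPM in small intestine and from 3.51 to 14.8 TPM in colon, where Cdh17 did not exceed 0.48 TPM. The part of epithelial RNA in the Cdh17 result was not tested beyond these values. Of 18 endothelial genes listed, only Erg was measured, at 0 to 0.38 TPM in small intestine, below bone marrow at 4.10 to 6.10 TPM. The 6 measured of 12 platelet genes summed to 482 to 743 TPM in small intestine against 1128 to 1840 TPM in lung, skin and colon, where Esam was at or below 2.14 TPM. Thbs1 carried these sums (525 TPM in small intestine, 1251 to 1670 TPM in the other 3 by mean). Ppbp, a platelet chemokine gene, was instead highest in small intestine by mean, at 68.1 TPM. It averaged 9.40 TPM in colon, 1.37 in lung, 0.80 in skin and 17.5 in blood. Itga2b (7.42 TPM) and Itgb3 (8.3 TPM) had their lowest means in small intestine. Pf4 averaged 17.0 TPM there, against 60.2 in blood and 77.2 in skin but 7.92 in colon and 1.68 in lung. Clec1b averaged 1 TPM there, 0.80 in colon, 0.75 in skin and 10.6 in blood. The part of platelet RNA in the Esam result was not tested beyond these values.

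Itgax, the alpha subunit of the integrin known as CD11c, was the most abundant of the genes that rose in small intestine, and it was the member with a second step in colon. The small intestine libraries held 312.62, 285.95, 317.45 and 337.32 TPM. The colon libraries held 108.69, 83.70 and 74.51 TPM, and no other library exceeded 18.06 TPM, a value of lung. The change of Itgax in small intestine against the 6 other tissues was 4.77 (SE 0.28, adjusted p = 2.56e-13), and against colon alone it was 1.80 (SE 0.39, adjusted p = 0.00185). In order of mean, small intestine (313 ± 21.2 TPM, SD, n = 4) was followed by colon (89.0 ± 17.7, n = 3), lung (13.1 ± 4.31, n = 3), spleen (10.1 ± 5.66, n = 4), blood (7.56 ± 3.76, n = 4), skin (4.24 ± 2.22, n = 3) and bone marrow (2.18 ± 1.21, n = 3). Small intestine and colon differed from each other, and colon differed from lung (2.14, adjusted p = 2.13e-05). From lung downward no tissue was told apart from its neighbour in this order, with adjusted p between 0.17 and 0.89, although lung was called above spleen (0.0420) and skin above bone marrow (0.0139) with quantile normalization, and bone marrow was below lung (adjusted p = 0.000136) and below blood (0.00741). Dendritic cells and macrophages also express Itgax. The 7 measured of 14 dendritic cell genes summed to 124 to 690 TPM (median 634) in small intestine. In colon they summed to 128 to 396 TPM (median 211). In spleen, where Itgax was at most 16.43 TPM, they summed to 193 to 425 TPM (median 338). Zbtb46, which defines conventional dendritic cells, was at 0.34 to 0.85 TPM in small intestine, while H2-Ab1, a class II gene of that list, averaged 173 TPM there, 57.5 TPM in colon and 61.8 TPM in spleen. The 8 measured of 18 macrophage and monocyte genes summed to 366 to 736 TPM in small intestine and 205 to 272 TPM in colon. Among them Lyz2 averaged 243 and 19.7 TPM and C1qb 26.7 and 11.4 TPM in these tissues, in the direction of Itgax. Csf1r, at 38.6 and 107 TPM, was the only measured gene of this list with a lower mean in small intestine than in colon. The part of these cells in the result was not tested further.

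Itgam, the CD11b subunit, lies beside Itgax and differed far less between tissues. In the GENCODE vM21 annotation of GRCm38 (mm10), the build of the deposited values, Itgam spans chr7:128062640-128118491 and Itgax chr7:128129547-128150657, both on the plus strand, with 11055 bases and 1 gene between them. Itgam held 240.11, 260.59, 310.67 and 283.06 TPM in small intestine. It held 226.01, 237.20 and 236.13 TPM in colon, and 269.81, 236.94 and 305.47 TPM in skin. The lowest libraries were those of bone marrow at 133.19, 132.84 and 136.94 TPM, followed by lung at 191.00, 156.50 and 163.16 TPM. Small intestine overlapped skin, spleen and blood. Its change against the 6 other tissues was 0.28 (SE 0.09, adjusted p = 0.00120), was lost under quantile normalization (adjusted p = 0.385), and was 0.10 (adjusted p = 0.0389) without bone marrow in the mean, a comparison added after seeing the data. Small intestine was called higher than bone marrow and lung only, and lung is the tissue whose median gene lay lowest, by 0.58 on the log2 scale against small intestine, so that the change of Itgam relative to that median was 0.10. A readthrough gene model, Gm49368, covers 4981 of the 5024 exonic bases of Itgam on the same strand and was measured as a gene of its own in the tissue libraries, at 0.286 to 13.1% of the sum of both, so Itgam values there are uncertain by that share. With both summed, an alternative also added after seeing the data, the small intestine change was 0.22 (adjusted p = 0.00518).

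The sequences of 250 bases before the start site are printed for the neighbours Itgax and Itgam, for Jaml, which rose in small intestine, and for Itgb7, which fell. They are the RefSeq sequence of build GRCm38.p6, 5′ to 3′ on the strand of the gene, and 5 of the 9 genes (these and Itga4) were matched by symbol in the table used. In all, 6 letter patterns were searched on both strands, and capitals mark their matches: GGAA, the core bound by ETS factors; GAGGAAGT, an extended form bound by PU.1; AGATAA, a form recognised by the GATA factors; TGANTCA, an AP-1 site; GCGTG, the core of the xenobiotic response element; and CACGTG, an E-box.
Itgax (chr7:128129300-128129549, plus strand): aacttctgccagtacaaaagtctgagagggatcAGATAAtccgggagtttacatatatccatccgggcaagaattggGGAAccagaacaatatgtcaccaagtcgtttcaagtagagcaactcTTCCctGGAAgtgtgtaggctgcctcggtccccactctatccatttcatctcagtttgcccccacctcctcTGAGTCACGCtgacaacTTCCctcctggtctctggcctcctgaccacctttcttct
Itgam (chr7:128062390-128062639, plus strand): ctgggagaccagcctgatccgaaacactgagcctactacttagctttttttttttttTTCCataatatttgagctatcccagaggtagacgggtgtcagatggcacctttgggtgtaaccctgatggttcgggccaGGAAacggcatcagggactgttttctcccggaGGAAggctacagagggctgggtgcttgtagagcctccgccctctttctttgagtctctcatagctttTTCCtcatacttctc
Jaml (chr9:45078933-45079182, plus strand): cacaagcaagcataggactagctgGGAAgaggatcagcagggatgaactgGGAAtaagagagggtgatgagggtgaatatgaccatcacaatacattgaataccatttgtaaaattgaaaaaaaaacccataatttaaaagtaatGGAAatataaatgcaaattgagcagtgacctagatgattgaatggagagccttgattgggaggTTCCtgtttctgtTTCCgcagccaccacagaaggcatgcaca
Itgb7 (chr15:102231936-102232185, minus strand): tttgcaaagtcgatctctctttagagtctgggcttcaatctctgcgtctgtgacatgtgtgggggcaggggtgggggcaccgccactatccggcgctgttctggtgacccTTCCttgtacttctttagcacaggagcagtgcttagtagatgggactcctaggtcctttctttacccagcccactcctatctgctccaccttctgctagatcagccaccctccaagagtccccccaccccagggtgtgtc
Itgax held GGAA at 4 positions, AGATAA at 1, TGANTCA at 1 and GCGTG at 1, the last on the minus strand and overlapping the TGANTCA match. Itgam held GGAA at 4 positions, Jaml at 5, and Itgb7 and Itga4 at 1 each, and none of these held the other patterns. GAGGAAGT contains the shorter GGAA and was in none of the 5 windows, and neither was CACGTG. Among 32851 promoter windows of the same length, 93.4% held GGAA, 2.44% GAGGAAGT, 9.99% AGATAA, 6.75% TGANTCA, 28.2% GCGTG and 6.02% CACGTG. These matches describe the letters and show no binding.

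Itga4, the alpha subunit shared by the Vcam1 and Madcam1 receptors, did not follow the gut. Bone marrow held 23.54, 35.22 and 40.66 TPM and skin 52.94, 42.65 and 78.71 TPM, the lowest of the 24 libraries. The small intestine libraries, at 95.62, 115.27, 130.61 and 138.45 TPM, overlapped colon at 119.13, 104.23 and 127.19 TPM. Blood was higher, at 191.59, 161.41, 201.43 and 173.31 TPM, and did not overlap small intestine. The change of Itga4 in small intestine against the 6 other tissues was 0.13 (SE 0.15, adjusted p = 0.204), which missed the threshold, with a 95% interval of -0.18 to 0.45, and it was -0.23 (adjusted p = 0.726) with bone marrow left out of the mean. In order of mean, spleen (188 ± 41.0 TPM, SD, n = 4), blood (182 ± 18.0, n = 4), lung (141 ± 16.4, n = 3), small intestine (120 ± 18.9, n = 4) and colon (117 ± 11.6, n = 3) were not told apart from their neighbours (adjusted p 0.18 to 1), colon was above skin (58.1 ± 18.6, n = 3; adjusted p = 0.00171), and skin was above bone marrow (33.1 ± 8.75, n = 3; adjusted p = 0.00726). Lung and small intestine were told apart with median-ratio scaling (adjusted p = 0.00247) and quantile normalization (0.0332). The call between skin and bone marrow was lost with either other scaling (adjusted p = 0.0533 and 0.103) and without bone marrow replicate 1 (0.0718) or skin replicate 4 (0.0648). The last 2581 bases of Itga4 are exonic and lie within the span of Cerkl on the other strand. Whether exons of Cerkl fall there was not examined. Whether reads were counted by strand is not given in the sources used here, so reads from that stretch cannot be told apart.

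Itgb7, the beta subunit that pairs with Itga4 in the gut-homing receptor, was lowest in the small intestine. Its libraries there held 30.88, 58.97, 121.67 and 59.22 TPM. Colon held 366.63, 348.88 and 458.41 TPM and blood 709.83, 656.55, 595.46 and 617.24 TPM. Bone marrow, at 158.63, 148.72 and 191.55 TPM, was next lowest, and no library of any other tissue overlapped the small intestine. The change of Itgb7 against the 6 other tissues was -2.98 (SE 0.18, adjusted p = 7.87e-13), the 46th largest fall of 9806 genes, and against colon it was -2.69 (SE 0.25, adjusted p = 1.18e-08). Lung (646 ± 81.3 TPM, SD, n = 3), blood (645 ± 50.2, n = 4), spleen (641 ± 81.6, n = 4), skin (450.11 to 475.54 TPM, 3 libraries) and colon (391 ± 58.8, n = 3) followed each other in mean without a called step between neighbours (adjusted p 0.16 to 1), while bone marrow (166 ± 22.4, n = 3) was below colon (adjusted p = 0.000571) and small intestine (67.7 ± 38.4, n = 4) below bone marrow (3.15e-05). Skin was called below spleen with quantile normalization (adjusted p = 0.0422), in a fit of only these groups (0.0487) and without small intestine replicate 3 (0.0471). Neutrophil genes differed between the same tissues. The 15 measured of 16 summed to 52440 to 79012 TPM in bone marrow, blood, spleen and lung, 11922 to 14232 TPM in colon, 6312 to 8273 TPM in small intestine and 4484 to 12493 TPM in skin, where Itgb7 was at 450.11 to 475.54 TPM. Retnlg carried most of that sum outside bone marrow (61059 TPM in blood, 70437 in lung, 6941 in small intestine). S100a8 averaged 7.12 TPM in blood and 5.81 TPM in lung, but 16464 TPM in bone marrow and 825 TPM in spleen (4.04 to 3242 TPM). Cxcr2 and Csf3r went the other way from Retnlg, at 21.1 and 14.7 TPM in small intestine against 0.19 and 1.68 TPM in blood. Their part in the results of Itgb7, Itgb2 and Selplg was not tested.

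Itgb2, the common beta subunit of Itgam and Itgax, also fell in small intestine. Its small intestine libraries held 110.79, 117.39, 110.11 and 195.32 TPM, the last from replicate 4. Colon held 295.05, 248.56 and 288.65 TPM, and skin was highest, at 739.74, 643.24 and 369.51 TPM. All small intestine libraries lay below the other 20, of which the lowest was a blood library at 245.19 TPM. The change was -1.44 (SE 0.14, adjusted p = 1.32e-08), and -1.65 without replicate 4. Thus Itgb2 and its partner Itgax moved in opposite directions in the same libraries. Among the other 6 tissues, skin (584 ± 192 TPM, SD, n = 3) was called above lung (352 ± 25.3, n = 3; adjusted p = 0.0101), a call that ended with median-ratio scaling (0.838) and without skin replicate 1 (0.0899) or 2 (0.0529). Below them lung, spleen (294 ± 30.2, n = 4), bone marrow (285 ± 10.2, n = 3), colon (277 ± 25.2, n = 3) and blood (272 ± 26.2, n = 4) were not told apart from their neighbours (adjusted p 0.28 to 0.93), except lung from spleen with median-ratio scaling (0.95, adjusted p = 0.00209).

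Selplg encodes the selectin ligand PSGL-1. It was high in blood, at 731.09, 851.51, 803.35 and 710.53 TPM, and in spleen, at 1171.08, 727.44, 743.27 and 547.58 TPM. Small intestine was lowest, at 169.06, 162.46, 201.01 and 192.98 TPM, with all libraries below the other 20. Bone marrow, at 237.87, 213.25 and 243.51 TPM, and skin, at 220.23, 249.41 and 327.83 TPM, lay just above it. The change in small intestine against the 6 other tissues was -1.32 (SE 0.13, adjusted p = 1.46e-08). Small intestine was called below 5 of the 6 tissues singly, the exception being bone marrow (-0.33, adjusted p = 0.110), where it was called with median-ratio scaling (adjusted p = 0.0225) and quantile normalization (0.000637), in a fit of only these groups (0.0344) and without spleen replicate 1 (0.0417). The call against skin (-0.51, adjusted p = 0.0207) was lost with median-ratio scaling (0.0743) and without skin replicate 4 (0.144) or small intestine replicate 2 (0.0569). Lung (505 ± 55.3 TPM, SD, n = 3) was below blood (774 ± 65.2, n = 4; adjusted p = 0.00741), a call lost with median-ratio scaling (0.457). Colon (303 ± 23.0, n = 3), skin (266 ± 55.6, n = 3) and bone marrow (232 ± 16.1, n = 3) did not differ between neighbours (adjusted p = 0.50 and 0.47).

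**Figure D2:**
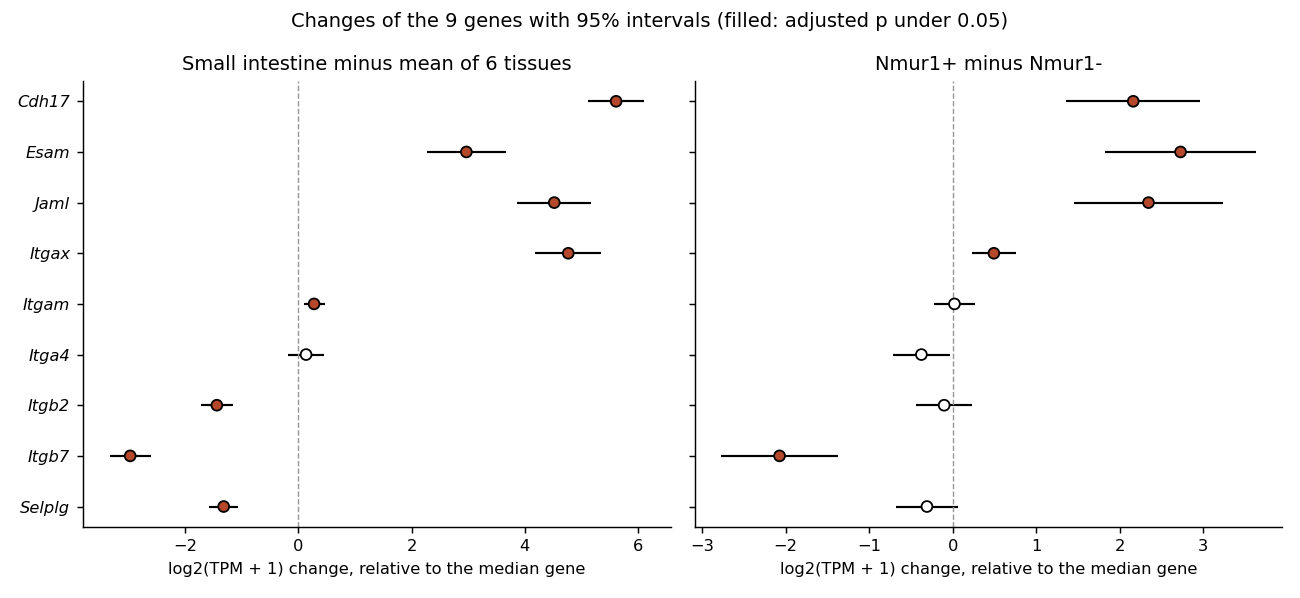
Change in log2(TPM + 1) relative to the median gene (horizontal axes) with its 95% interval for each of the 9 genes, for small intestine minus the mean of 6 tissues (left) and for Nmur1+ minus Nmur1- (right); filled points passed an adjusted p of 0.05. Cdh17, Esam, Jaml and Itgax lie right of 0 and Itgb7 left of 0 in both panels, while Itgb2 and Selplg lie clearly left of 0 on the left panel only.

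Counted together, 8 of the 9 genes were called between small intestine and the mean of the 6 other tissues, against 40.8% of all 9806 genes tested, with 5 higher (24.7% of all genes) and 3 lower (16.1%). Their median change was 0.28, beside 0 for all genes by construction. Higher in small intestine than in each of the 6 tissues singly were Cdh17, Esam, Jaml and Itgax, a pattern called for 2.94% of all genes. Lower than in each were Itgb2 and Itgb7, a pattern called for 2.05% of all genes. By library values alone, 4 members lay above all other 20 libraries (4.47% of all genes) and 3 below (1.85%). All 9 differed somewhere among the 7 tissues, as did 81.1% of all genes. The members were chosen with such results known, so these counts describe them and test nothing.

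Over the 21 comparisons of 1 tissue with another, members were called in 101 of 189 tests (34.8% of all gene tests). The 6 comparisons with small intestine held 47 of 54 possible calls (37.2% of all gene tests there) and the other 15 comparisons held 54 of 135 (33.9%). Against bone marrow, small intestine had 8 members called (42.1% of all genes), blood, spleen and lung 5 each (34.6%, 31.1% and 53.3%), and skin and colon 4 each (40.7% and 35.5%). In blood, spleen and lung these were Itga4, Itgb7, Selplg, Itgax and Itgam, all higher than in bone marrow. For blood their changes were 2.51, 2.01, 1.80, 1.45 and 0.85. The Itgam call for lung was lost with quantile normalization (adjusted p = 0.303). It was also lost without any 1 bone marrow library (0.0707 to 0.0908) and without lung replicate 1 (0.168) or 3 (0.0532). No member was called between spleen and blood (1.09% of all genes). Against blood, small intestine had 8 called (44%), colon 4 (31.9%), skin 3 (37.1%) and lung 2 (35.7%), and Selplg was lower than in blood in each of these. Against spleen the counts were 8 for small intestine (42.3%), 4 for colon (30.3%), 4 for skin (35%) and 2 for lung (42.6%). Against lung they were 8 for small intestine (50.2%), 5 for skin (42.5%) and 4 for colon (38.2%). Small intestine differed from skin in 8 (32.2%) and from colon in 7 (12.7%), and colon differed from skin in 3 (18.2%), with Itgax and Itga4 higher and Itgb2 lower in colon.

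Between the tissues with a barrier (lung, skin, colon and small intestine) and marrow, blood and spleen, 6 of 9 were called (53.4% of all genes). The 4 higher (22.4% of all genes) were Itgax (2.72), Cdh17 (1.55), Jaml (1.53) and Itgam (0.39), and the 2 lower (31.1%) were Selplg (-0.67) and Itgb7 (-0.34). Cdh17 and Jaml were near 0 in lung, skin and colon, so their values in this comparison rest on the small intestine. Itgb7 averaged 646 TPM in lung, 464 in skin and 391 in colon. It averaged 645 TPM in blood, 641 in spleen and 166 in bone marrow, and was lowest in small intestine at 67.7 TPM. The Itgam call was lost with quantile normalization, where its sign turned (-0.0031, adjusted p = 0.358). Esam missed the threshold at 0.74 (adjusted p = 0.0541) and passed it in 7 alternatives, with adjusted p down to 0.00834 without spleen replicate 4. The 2 gut tissues against lung and skin gave calls for all 9 (40.6% of all genes), 6 higher (29.5%) and 3 lower (11.1%). Of these, Itgam (-0.04 relative to the median gene, higher before it is subtracted, adjusted p = 0.0427) and Itga4 (0.13, adjusted p = 0.0411) were lost with median-ratio scaling (0.930 and 0.350) and quantile normalization (0.576 and 0.276). Cdh17, Esam and Jaml averaged 0.21, 0.71 and 0.83 TPM in colon, so their calls in this comparison also rest on the small intestine.

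Within the small intestine, sorting by the Nmur1 reporter separated 5 of the 9 genes, against 14.4% of 7982 genes tested, with 4 higher (9.18% of all genes) and 1 lower (5.25%). Cdh17 held 35.18, 37.11, 30.78, 64.21 and 73.06 TPM in the Nmur1+ libraries. In the 6 Nmur1- libraries it ranged from 3.26 to 20.07 TPM with a median of 7.73 TPM. The groups did not overlap, and the change was 2.16 (SE 0.38, adjusted p = 0.000467). Jaml held 38.87, 35.63, 46.30, 43.77 and 60.74 TPM in Nmur1+ libraries, and 1.33 to 18.15 TPM (median 7.79) in Nmur1- libraries. That separation was also complete, with a change of 2.35 (SE 0.42, adjusted p = 0.000573). Esam held 10.23, 23.42, 17.78, 10.37 and 14.30 TPM in Nmur1+ libraries. Its Nmur1- libraries lay between 0 and 4.69 TPM (median 1.04), and 2 were listed at 0. The change of Esam was 2.73 (SE 0.43, adjusted p = 0.000202), the 3rd highest of all genes tested. Esam reached 1 TPM in all 5 Nmur1+ and 3 Nmur1- libraries, so it passed the filter of 5 libraries through the Nmur1+ group.

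Itgax and Itgb7 were the integrin subunits that differed. Itgax was abundant in both populations, at 273.56, 377.40, 358.76, 335.41 and 405.26 TPM in Nmur1+ libraries and 191.43 to 231.94 TPM (median 209) in Nmur1- libraries. The groups did not overlap, and the change was 0.49 (SE 0.13, adjusted p = 0.00109). Itgb7 went the other way, with 54.23, 31.82, 22.72, 15.31 and 45.60 TPM in Nmur1+ libraries and 65.82 to 205.48 TPM (median 116) in Nmur1- libraries. Every Nmur1+ library was below every Nmur1- library, and the change was -2.07 (SE 0.33, adjusted p = 0.00112). Of the 9 genes, 4 lay wholly above (5.65% of all genes) and 1 wholly below (3.71%) in Nmur1+ libraries.

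The other 4 genes were not called in the sort. Itgam held 252.03 to 306.90 TPM in Nmur1+ and 207.57 to 267.60 TPM in Nmur1- libraries (0.02, 95% interval -0.22 to 0.27, adjusted p = 0.188). Itga4 held 93.77 to 131.39 TPM and 96.13 to 160.32 TPM (-0.37, interval -0.71 to -0.04, adjusted p = 0.540). Itgb2 held 82.32 to 116.31 TPM and 67.96 to 107.79 TPM (-0.10, interval -0.44 to 0.23, adjusted p = 0.666). Selplg held 109.65 to 199.50 TPM and 110.18 to 177.15 TPM (-0.31, interval -0.68 to 0.06, adjusted p = 0.757). All 4 overlapped between the groups. The interval of Itga4 excluded 0 only because the median gene was 0.22 higher in Nmur1+ libraries, while the p tests the difference of -0.16 before that subtraction.

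**Figure D3:**
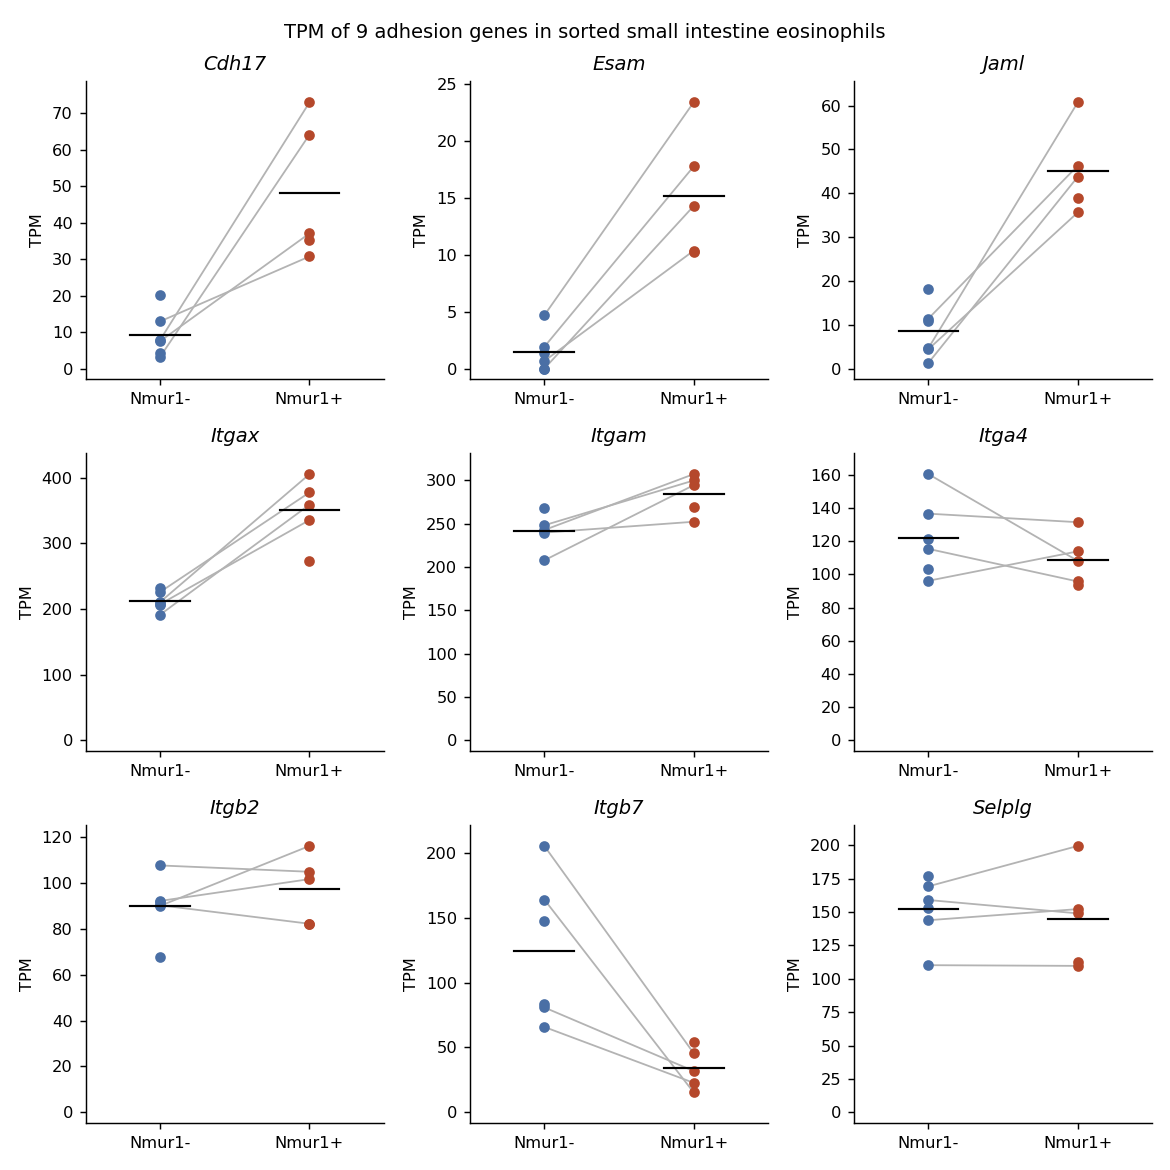
TPM (linear vertical axes) of the 9 genes in Nmur1- (blue, 6 libraries) and Nmur1+ (red, 5 libraries) small intestine eosinophils; points are libraries, bars are group means, and grey lines join the 4 pairs with the same replicate number. Cdh17, Esam, Jaml and Itgax are higher in Nmur1+ and Itgb7 lower along every line, with no overlap of the groups, while the other 4 genes overlap.

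Other cell types moved with the sort to different degrees. The 6 measured of 18 macrophage and monocyte genes summed to 474 to 665 TPM in Nmur1+ and 160 to 356 TPM in Nmur1- libraries, mostly through Lyz2 (184 to 374 and 36.6 to 103 TPM) and Apoe (means of 172 and 91.3 TPM). C1qa (20.4 and 10.4), C1qb (29.3 and 13.9) and Cd14 (28.2 and 16.3) also had higher means in Nmur1+ libraries, and Csf1r a lower one (23.7 and 28.9). The 4 measured of 14 dendritic cell genes summed to 401 to 558 TPM in Nmur1+ libraries and 237 to 2431 TPM (median 328) in Nmur1- libraries. The 2 measured epithelial genes, Krt18 and Olfm4, summed to 113 to 239 TPM and 79.5 to 96.7 TPM, and no listed endothelial gene was among those measured. The 7 measured of 16 neutrophil genes summed to 6165 to 10384 TPM and 9770 to 13228 TPM, carried by Retnlg (means of 7166 and 10874 TPM), while Cxcr2 (29.1 and 6.45), Csf3r (18.6 and 8.54), Ngp (9.84 and 5.27) and Mmp8 (5.91 and 3.55) had higher means in Nmur1+ libraries. The 4 measured of 12 platelet genes summed to 572 to 1143 TPM and 557 to 881 TPM, carried by Thbs1 (667 and 660). The platelet chemokine gene Ppbp averaged 108 TPM in Nmur1+ and 48.3 TPM in Nmur1- libraries. Itga2b (6.70 and 8.85) and Itgb3 (7.86 and 10.1) had lower means in Nmur1+ libraries. The part of these cells in the changes of the 5 members was not tested.

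Ratios between subunit transcripts within a library need no scaling between libraries, and 3 were examined as log2 ratios of TPM + 1, in 6 exact permutation tests (two-sided) adjusted together. Itgax over Itgam was near parity in small intestine, with libraries at 0.38, 0.13, 0.03 and 0.25. In blood the libraries were at -5.46, -4.71, -5.28 and -4.06. Colon lay between at a mean of -1.40, and skin was lowest at -5.79. The difference between small intestine and blood was 5.08 (exact p = 0.0286, adjusted 0.0343), the smallest p that 4 libraries against 4 allow. In the sort the same ratio was above 0 in all 5 Nmur1+ libraries and below 0 in all 6 Nmur1- libraries, a difference of 0.47 (exact p = 0.00433, adjusted 0.0260), again the smallest p possible. These tests permute the libraries freely. Over the 4 pairs with the same replicate number, a test added after seeing the data, the ratio was higher in Nmur1+ in 4 of 4 pairs (mean difference 0.52, exact p = 0.125, the smallest that 4 pairs allow).

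Itga4 over Itgb7, the subunits of the Madcam1 receptor, was above 0 in small intestine and below 0 in the other tissues. The ratio was -1.88, -2.02, -1.56 and -1.83 in blood and 1.60, 0.96, 0.10 and 1.21 in small intestine, a difference of 2.79 (exact p = 0.0286, adjusted 0.0343). Colon stood at a mean of -1.73, below 0 in all 3 libraries. Nmur1+ libraries averaged 1.77 ± 0.70 (SD, n = 5) and Nmur1- libraries 0.07 ± 0.69 (SD, n = 6), a difference of 1.70 (exact p = 0.00866, adjusted 0.0260), and 1.91 over the 4 pairs, higher in 4 of 4 (exact p = 0.125). Itgb7 over Itgb1, the alternative beta partners of Itga4, fell from 3.64 ± 0.12 in blood to 1.31 ± 0.63 in small intestine (SD, n = 4 each), a difference of -2.33 (exact p = 0.0286, adjusted 0.0343). It stayed above 0 in every library, so Itgb7 exceeded Itgb1 per length throughout. Between Nmur1+ and Nmur1- libraries it differed by -1.02, which missed the threshold (exact p = 0.0693, adjusted 0.0693).

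**Figure D4:**
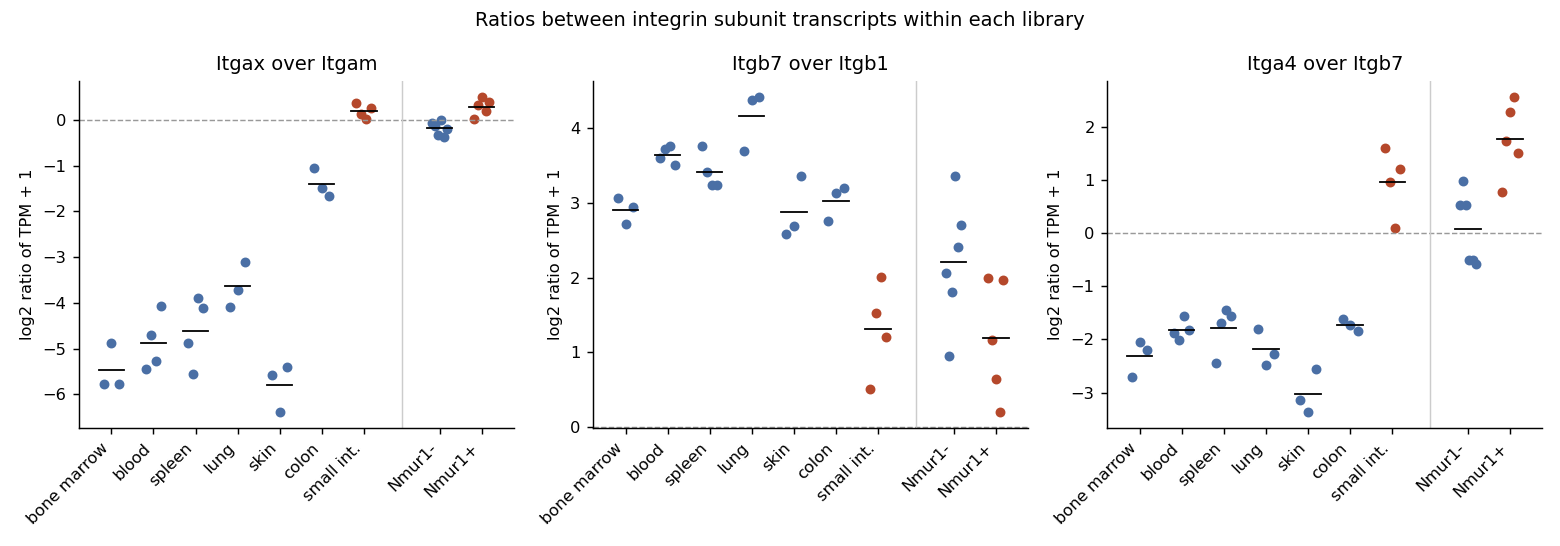
Log2 ratio of TPM + 1 (vertical axes) between integrin subunit transcripts in each library of the 7 tissues and, right of the grey line, of the separately normalised sorted set; points are libraries, bars are group means and the dashed line is equality. Itgax over Itgam climbs from -5.79 in skin to 0.20 in small intestine, and Itga4 over Itgb7 is above 0 in all 4 small intestine libraries and below 0 in every library of the other tissues.

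The other integrin subunits fell together in small intestine. Of 21 listed, 8 were measured, and all 8 were called lower in small intestine than in the mean of the 6 tissues (16.1% of all genes), under the deposited scale and both other scalings. Their median change was -1.36. Itgal (67.8 TPM in small intestine) was nevertheless lower still in bone marrow (49.1 TPM) and skin (55.3 TPM). Itga2, a collagen receptor subunit, changed by -2.97 (adjusted p = 3.97e-09). Itgb3, the beta subunit shared by the platelet and vitronectin receptors, changed by -2.23 (1.49e-09). Itga5, of the fibronectin receptor, changed by -2.19 (0.000176), and Itgav by -1.40 (0.0151). In the sort 5 were measured and 2 were lower in Nmur1+ libraries (5.25% of all genes): Itgal, the alpha subunit of LFA-1 and another partner of Itgb2, by -1.19 (adjusted p = 0.00247), and Itgb1 by -1.06 (0.0424). Itgax was thus the 1 integrin alpha subunit of those measured that was called higher in both comparisons, since Itgam was called in the first only.

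**Figure D5:**
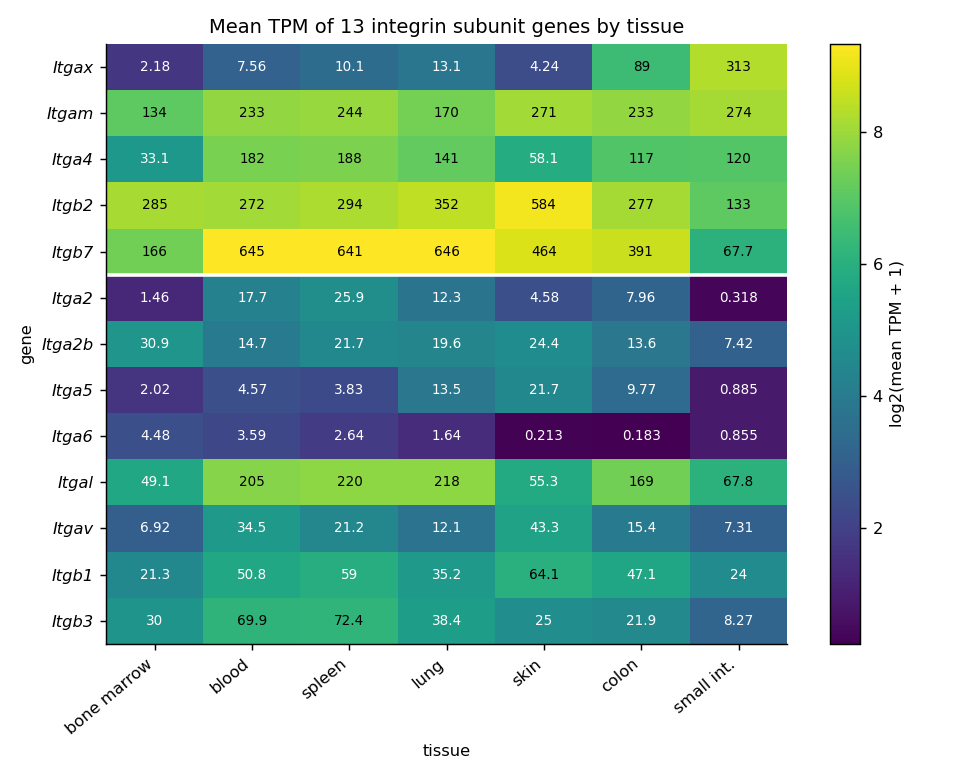
Mean TPM (numbers in the cells; colour is log2 of mean TPM + 1) of the 5 integrin subunit members (above the white line) and 8 other integrin subunits in total eosinophils of 7 tissues. Itgax is the row that is brightest in small intestine (313 TPM), whereas the 8 rows below the line are lower there than in most other tissues.

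Of 16 genes of selectins and selectin ligand synthesis, 13 were measured, and 3 were called higher and 5 lower in small intestine (6 lower with either other scaling), beside 24.7% and 16.1% of all genes. Among enzymes that modify the product of Selplg, the fucosyltransferase Fut4 (2.79) and the tyrosine sulfotransferase Tpst2 (1.73) were higher. The sialyltransferase St3gal4 (-1.53), the fucosyltransferase Fut7 (-1.45) and Gcnt1 (-0.74) were lower. In the sort, where 9.18% of all genes were higher and 5.25% lower, 2 were higher and 2 lower (1 and 3 with median-ratio scaling, 1 and 2 with quantile normalization), with St3gal4 at -1.32 and Tpst2 at 0.51.

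Among 35 other adhesion genes, mostly of immunoglobulin-fold and cadherin type, 15 were measured. Of these, 5 were called higher and 3 lower in small intestine (4 and 3 with either other scaling), shares not far from the 24.7% and 16.1% of all genes. Icam1, a ligand of Itgb2 integrins, was higher by 3.01 (adjusted p = 2.32e-12), at a mean of 491 TPM against 120 TPM over the 6 tissues. Over all 4 tissues with a barrier it averaged 290 TPM, against 18.3 TPM in marrow, blood and spleen (3.95). In the sort Icam1 went the other way, at 152 to 202 TPM in Nmur1+ and 577 to 759 TPM in Nmur1- libraries (-2.11, adjusted p = 1.07e-07). Pecam1, a molecule of transendothelial passage, was higher in small intestine by 2.05 and in Nmur1+ libraries by 0.45, the second of which was lost with median-ratio scaling. L1cam (-2.80) and Alcam (-1.75) were lower in small intestine.

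Of 34 genes of integrin activation and adhesion machinery, 28 were measured, and 5 were called higher and 10 lower in small intestine (24.7% and 16.1% of all genes; 12 lower with quantile normalization). Cytip, which restrains cytohesin at integrins, was higher by 2.37 (adjusted p = 2.55e-13) and Filip1l by 1.62. Flna, which links integrin tails to actin, was lower (-2.57, adjusted p = 1.28e-11), as was Vcl (-1.65). In the sort 6 were higher and 2 lower, beside 9.18% and 5.25% of all genes. These counts were 4 and 3 with median-ratio scaling and 4 and 2 with quantile normalization. Cytip stood at 0.91, Rassf5 at 0.59, Vasp at -1.26 and Rap1b at -0.83. Of 26 homing receptors, 13 were measured, with 4 called higher and 5 lower in small intestine (24.7% and 16.1% of all genes; 7 lower with quantile normalization). S1pr4, a sphingosine phosphate receptor, changed by -4.05, Cxcr2 by 3.11, Ccr1 by 2.06 and P2ry14 by 1.47. Over all 4 tissues with a barrier against marrow, blood and spleen, Ccr1 was higher by 3.55 and Cytip by 2.91. In the sort 11 homing receptors were measured, with 3 higher and 3 lower (2 and 3 with median-ratio scaling), beside the same shares of all genes. Cxcr2 (1.74), Gpr183 (0.84) and Ccr1 (0.45) were higher, while C5ar1 (-3.44), Gpr35 (-1.94) and C3ar1 (-1.77) were lower. The median change of the 5 lists in small intestine was, in the order given here, -1.36, 0.01, 0.30, -0.08 and -0.41, beside 0 for all genes.

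The genes whose levels followed each member most closely over the 24 tissue libraries are given as a description, by Pearson's r of log2(TPM + 1); the libraries of a tissue share their source, so these are not independent points. For Cdh17 they were F2rl3 (r = 0.973), Cyp1b1 (0.970) and Nmur1 (0.970). For Jaml they were Cyp1b1 (0.966), Dpep2 (0.955) and Clec4a4 (0.945), and for Esam they included Dpep2 (0.889) and Cyp1b1 (0.887). For Itgax they were 2510009E07Rik (0.946), Adamdec1 (0.937) and Ahrr (0.935). For Itgb7 they were S100a10 (0.973), Alox5ap (0.961) and Ccl6 (0.949), and for Selplg they were Unc119 (0.956), Adipor2 (0.938) and Rassf3 (0.934). For Itgb2 they were Gm21188 (0.921), Capg (0.897) and Flna (0.891). For Itgam they were Sirpa (0.938), Ptk2b (0.935) and Slfn2 (0.913), and for Itga4 they were Ptprc (0.909), Ksr1 (0.909) and Dennd3 (0.894).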

How the data were processed

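TPM values were deposited by the authors in 2 tables, for 24 tissue and 11 sorted libraries (9844 and 8001 genes, 7941 in both). The tools named in the submitters' processing notes are STAR 2.7.5c, RSEM 1.3.3 and cutadapt 2.10, and the build named per the submitters' processing notes is mm10. Not given in the sources used here are the depth, the strand setting and the rule by which the authors removed genes. Deposited columns sum to 796048 to 890768 TPM (tissue) and 799585 to 863816 TPM (sorted), and every gene is above 0 in at least 3 or 6 libraries. Since the tables were normalised apart, levels are compared within a table only.

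Genes reaching 1 TPM in 3 tissue or 5 sorted libraries were tested on log2(TPM + 1), pseudocount 1, with limma 3.58.1 in R 4.3.3 (eBayes with trend, two-sided) and Benjamini-Hochberg adjustment over all genes tested; 9806 and 7982 genes entered, and the code was tested on simulated data. All 24 tissue libraries shared 1 fit with tissue as the only term, and the sorted libraries a second fit with the sort as the only term. Sample titles gave the groups and replicate numbers. Ratios were tested by exact permutation with scipy in Python. The members and gene lists were chosen with earlier results of these data known. Named besides the members were, per list and comparison, the 4 called genes with the largest change, and per member the 3 genes with the highest Pearson's r among genes whose mean reached 10 TPM in some tissue. Fut7, Gcnt1 and Gpr183 were added after their values were seen. Marker genes named are among the 3 highest of a list, with exceptions chosen after their values were seen. The exceptions are Epcam, Zbtb46, Csf1r, C1qa, C1qb, Cd14, S100a8, Cxcr2, Csf3r, Ngp, Mmp8, Ppbp, Itga2b, Itgb3 and Clec1b. Some genes that the rule names are not reported here. In the sort, the 4 pairs of libraries with the same number in their titles deviated together (r 0.164 to 0.225, all over 0.1). Libraries with different numbers were not compared in this way. The labels do not say what the numbers mean, so whether they pair the samples is not known. Alternatives were other pseudocounts, filters, scalings, robust variance, a replicate block, only the groups compared, and leaving out each library.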

Additional observations from a re-analysis of the deposited data

Results flagged for a closer look

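Within each group of 4 to 6 libraries, the highest and lowest library of every member and ratio was compared with the group's range. Of 59 such groups, 5 held a library that stood far from the rest. The limit used gives about 1 in 20 for normally distributed values. Groups mostly at 0 are not so distributed, so the rates cannot be compared. Itgb2 in small intestine replicate 4 was 195.32 TPM, above 110.11 to 117.39 TPM in the other 3 libraries and still below all 20 libraries of other tissues. The other 4 are low values in groups otherwise at or near 0: Cdh17 at 1.63 TPM in blood replicate 3 and at 0.27 TPM in spleen replicate 2, Esam at 2.04 TPM in blood replicate 2, and Jaml at 1.12 TPM in spleen replicate 3. The causes were not tested.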

How the results depend on the processing

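Among the 9 members, 297 of 298 alternative values for small intestine against the other tissues and all 180 for the sort kept their side of the threshold, the exception being Itgam under quantile normalization. Among values that missed it, the sign turned for Itga4 with bone marrow left out (-0.23) and for Itgam in the sort without Nmur1+ replicate 5 (-0.0037). Counts of called genes stayed within 1.5 times: leaving out 1 library gave 3418 to 4072 (main 3999) for small intestine against the mean of 6, 4906 to 5285 (5239) for barrier tissues, 3616 to 4096 (3978) for gut against lung and skin, 867 to 1161 (1152) for the sort and 95 to 103 (101) member calls over the 21 tissue pairs. The directions of all called genes depended on scaling. Higher and lower calls in small intestine were 2422 and 1577 as deposited, 2010 and 1862 with median-ratio scaling and 1816 and 2137 with quantile normalization; in gut against lung and skin 2888 and 1090, 2139 and 1606, and 1649 and 1820; in the sort 733 and 419, 362 and 592, and 428 and 529. Signs turned for Itgam between lung and spleen (0.17, adjusted p = 0.966) and between colon and lung (-0.22, 0.699) with median-ratio scaling, and for Itgam (-0.0031, 0.358) and Itgb2 (-0.17, 0.0378) in the barrier comparison with quantile normalization; the cause was not tested. Itgam was called in 11 of 21 tissue pairs, and in 6 with median-ratio scaling. Over all tissue pairs, 6117 of 6213 alternative member values kept their call.

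The replicate block gave 1342 calls in the sort, and 1328 with only the 4 matched pairs, and changed no member's call there. Ratio differences over the 4 pairs were 0.52 and 1.91 (Itgax over Itgam, Itga4 over Itgb7, adjusted p = 0.188 each) and -1.21 (Itgb7 over Itgb1, 0.250); 4 pairs cannot pass, so this paired test says nothing on stability. In the tissues, libraries with the same number did not deviate together (62 pairs, r -0.045 to 0.088), and the block gave 3965 calls for small intestine against the mean of 6. Leaving out 1 library, ratio differences between small intestine and blood ranged from 4.88 to 5.35 (Itgax over Itgam), -2.57 to -2.07 (Itgb7 over Itgb1) and 2.58 to 3.08 (Itga4 over Itgb7); with 3 libraries against 4 the smallest adjusted p is 0.0686, so none can pass. The sort difference of Itgb7 over Itgb1 ranged from -1.27 to -0.77 and passed without Nmur1- replicate 3 (adjusted p = 0.0317). Restricting the barrier comparison to the groups compared is the fit already used, as it takes all 7. TPM keeps no depth, so whether genes listed at 0 are absent cannot be judged.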
